A study of Mus musculus with 14 samples.

Results

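The unsaturated bright microRNAs (miRs) of the mouse left ventricle (LV) were 255 of 520 probes for mouse miRs. Members were chosen by their measured brightness and by the lack of saturation. A miR entered the set when its mean scaled log2 value over all 14 arrays of the study lay at least 2 above the mean detection threshold of 5.49, so at 7.49 or more, and when on no array 2 or more of its 3 spots had an intensity of 65000 or above. Of the probes left out, 223 were dimmer, and 42 were bright but saturated on at least 1 array, 20 of these on all 14. miR-207 and miR-101a*, both at a mean of 7.50, lay just inside the brightness limit, and miR-298 (7.48) and miR-204 (7.47) just outside it. At the saturation limit, miR-149* with a saturated spot on 1 array and miR-130a with a highest intensity of 60827 lay just inside, and miR-195 and miR-2137, each saturated on 1 array, just outside. The values of the compared mice were part of that mean. In 4 members only the mean of the HF mice reached the limit, and 1 of these (miR-455*) was called higher, and in 7 only the mean of the sham mice did, with 4 called lower (miR-207, miR-215, miR-345-3p and miR-652*). In 1 member, not called, neither mean reached it, and the 243 members with both means at or above the limit held 30 of the higher and 15 of the lower calls described below.

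The comparison was between LV of 4 sham-operated mice and of 5 mice with heart failure (HF) after transaortic constriction (TAC), a narrowing of the aorta that loads the LV with pressure. All were male C57Bl/6 mice of 3 to 4 months, with an ejection fraction of about 60% before surgery. The HF mice were killed untreated at 6 to 8 weeks after TAC, when the ejection fraction was about 35%. Another 5 HF mice given estradiol (E2) counted only toward the mean that chose the set. Each mouse was measured on 1 single-channel array, and the number of arrays limits the precision.

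The labelled tissue was checked against miRs that mark heart muscle. miR-1 and miR-133a were saturated on all 14 arrays, and miR-208a-3p lay between 15.65 and 15.89 in the sham mice, with the highest mean of the set, 15.31 over all 14 arrays. Markers of other cells of the LV were also at the ceiling of the scanner, where levels cannot be compared: miR-126-3p of endothelium and miR-143 and miR-145 of smooth muscle on all 14 arrays, and miR-451 of red blood cells on 11. Since the whole LV was measured, more or fewer cells of a type and more or less miR per cell cannot be told apart.

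A miR is a short RNA cut from a hairpin precursor, and either strand of the hairpin, the 5p or the 3p arm, can be loaded into an Argonaute protein, where it represses mRNAs with matching sites. The asterisk in the older names marks the arm thought to be the minor product. Bases 2 to 8, the seed, carry most of the pairing with the target, so miRs with 1 seed form a family of shared targets. Many miRs are transcribed inside a longer host gene, and others stand in clusters that are made as 1 transcript. In the heart, miRs of the myosin genes follow the myosin isoforms of the muscle cell, while miR-21, miR-214 and miR-199 are known from fibroblasts and the miR-29 family represses collagen genes.

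The sequences that carry the comparison are given 5′ to 3′, with the seed in capitals, as matched to RefSeq miRs on mouse build GRCm38.p6. Of the 255 members, 202 had an identical RefSeq mature sequence, 16 lay within a RefSeq hairpin (miR-199b*, miR-222 and miR-34c below) and 37 were not matched. The first 3 are the myosin gene miRs: miR-208a-3p and miR-208b share a seed and changed in opposite directions in HF, and miR-499 differs from them in the last base of the seed.
miR-208a-3p: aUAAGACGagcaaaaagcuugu
miR-208b: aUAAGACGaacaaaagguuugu
miR-499: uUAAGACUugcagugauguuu
The next 6 are fibroblast and mesenchymal miRs that were higher in HF, with both arms of miR-214 and of miR-455.
miR-21: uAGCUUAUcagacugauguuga
miR-214: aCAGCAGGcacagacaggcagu
miR-214*: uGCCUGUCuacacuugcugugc
miR-455: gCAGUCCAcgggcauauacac
miR-455*: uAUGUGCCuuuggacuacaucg
miR-199b*: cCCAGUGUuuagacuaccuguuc
Each of the following pairs shares its seed.
miR-146a: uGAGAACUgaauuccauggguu
miR-146b: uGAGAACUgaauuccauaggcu
miR-221: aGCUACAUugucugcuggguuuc
miR-222: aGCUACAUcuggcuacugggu
miR-15b: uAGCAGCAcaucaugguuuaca
miR-497: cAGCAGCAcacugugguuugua
miR-34b-5p: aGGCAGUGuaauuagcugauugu
miR-34c: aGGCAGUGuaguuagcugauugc
miR-192: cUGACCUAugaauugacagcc
miR-215: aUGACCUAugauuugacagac
The last are both arms of miR-29c, which were lower in HF, and miR-210, whose arms moved apart.
miR-29c: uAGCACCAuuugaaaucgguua
miR-29c*: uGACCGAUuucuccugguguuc
miR-210: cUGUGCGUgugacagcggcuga

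The arrays differed before scaling. The median intensity of the 255 members ran from 616 to 937 in sham mice and from 1039 to 1617 in HF mice, and after the authors' scaling the medians were 9.73 to 9.97 and 9.86 to 9.99 on the log2 scale. Sham 1 had the lowest sham value for 136 of the 255 members, with a median distance of 0.37 from the sham median against 0.15 to 0.20 for sham 2 to 4. The array codes in the column names were 1 code for all 4 sham mice and another 2 codes for the HF mice, so that code and group cannot be told apart. HF 2 also carried a different suffix, and its negative control probes averaged an intensity of 37.3 against 20.05 to 27.33 on the other HF arrays. Every fold change below is relative to the scaling of the array: without any scaling, 150 members were called higher and 0 lower.

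A miR was called when limma gave an adjusted p under 0.05 over all 520 probes and the log2 fold change, HF minus sham, was over 0.5 in size. By this rule 31 of the 255 members were higher and 19 lower in HF, 19.6% together, or 12.2% and 7.45%. Over all 520 probes 26.7% were called, 8.46% higher and 18.3% lower, and of the 95 lower calls 48 were dim probes and 28 were saturated ones, whose levels are bounds. HF and sham values did not overlap in 54 members, 21.2%, close to the 21.5% over all probes, and 43 members were both called and free of overlap. The median log2 fold change was -0.02 over the members and -0.13 over all probes. The split of the calls moved with the scaling, to 50 higher and 9 lower with the 75th percentile of each array and to 23 higher and 25 lower with the median of the members. When the members were split by mean value into 3 parts of 85, 23 were called in the brightest, 12 in the middle and 15 in the dimmest. Of the 205 members not called, miR-153 had the lowest log2 fold change, -1.09 ± 0.54 (adjusted p = 0.14, limma), with 10.04, 8.14, 6.58 and 8.18 in sham 1 to 4 and 7.19, 6.83, 7.32, 6.50 and 7.87 in HF 1 to 5. It is named after its values were seen. The plot of change against level shows miR-208b far above every other member.

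**Figure D1:**
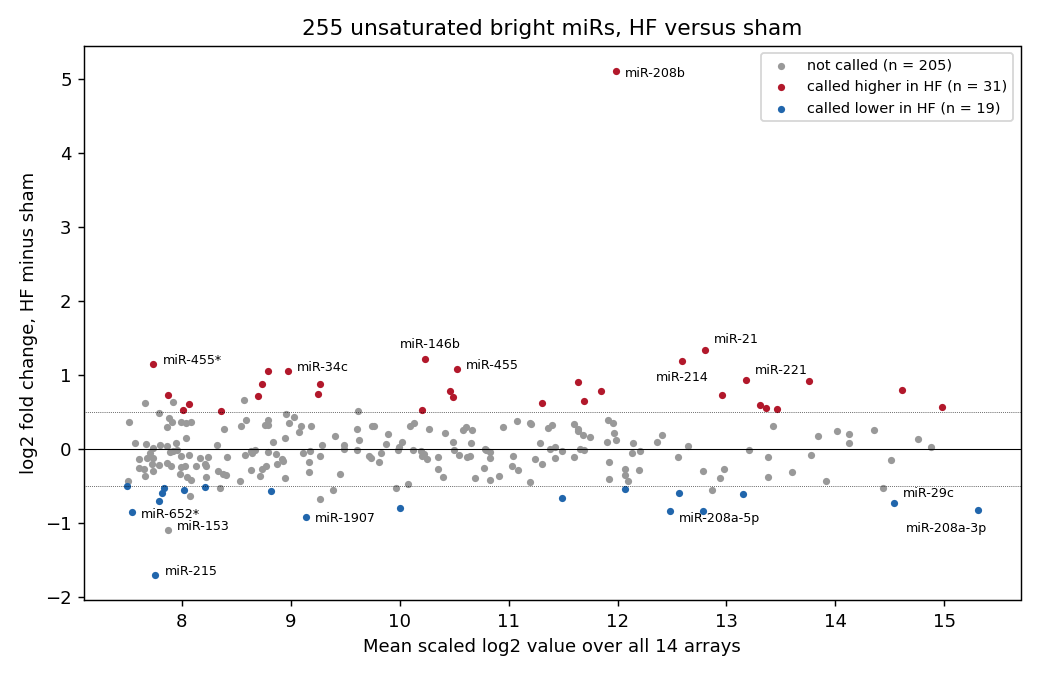
Each point is 1 of the 255 members, with its mean scaled log2 value over all 14 arrays on the x axis and its log2 fold change, HF minus sham, on the y axis; dotted lines mark a change of 0.5 in either direction. The 31 members called higher and 19 called lower are spread over the whole range of levels, and miR-208b stands alone at 5.11.

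The miRs of the myosin genes changed in opposite directions, the largest rise of the set among them. miR-208b lies in Myh7, the gene of the slow β-myosin heavy chain, at chr14:54975700-54975776 on the minus strand. Its scaled log2 values were 8.95, 9.10, 7.67 and 8.75 in sham 1 to 4 and 12.63, 13.20, 13.80, 14.17 and 14.83 in HF 1 to 5. The lowest HF mouse stood above the highest sham mouse by more than 3 log2 units. The SDs of 0.65 in sham and 0.85 in HF were above the median SD within groups over the members, 0.25. The log2 fold change was 5.11 ± 0.42 (SE), a 34.5-fold difference, with an adjusted p of 3.05e-05 in limma. The exact two-sided permutation p over the 9 mice was 0.00794, the smallest that all splits of 9 mice allow. In the order sham 1 to 4 and then HF 1 to 5, as for all values below, miR-208a-3p had 15.70, 15.82, 15.65 and 15.89, and 15.18, 14.17, 14.98, 15.10 and 15.26. It lies in Myh6, the gene of the fast α-myosin heavy chain, at chr14:54949060-54949142, and all HF mice were below all sham mice, HF 2 farthest. The log2 fold change was -0.83 ± 0.21 (adjusted p = 0.0124, limma).

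The other arm of that precursor, miR-208a-5p, had 12.60, 13.34, 13.09 and 13.04 in sham and 12.33, 12.56, 11.97, 12.04 and 11.997 in HF. The groups did not overlap, and the log2 fold change was -0.84 ± 0.18 (adjusted p = 0.00598, limma). miR-499, in an intron of the myosin gene Myh7b at chr2:155622880-155622958, had 12.94, 13.25, 13.04 and 13.10, and 12.28, 12.69, 12.36, 12.46 and 12.66. All HF mice were again lower, with a change of -0.59 ± 0.14 (adjusted p = 0.00867, limma), but with the 75th percentile scaling the change was -0.42 and no longer called. miR-208a-3p and miR-208b are identical at 19 of 22 positions, with the substitutions G10A, A16G and C18U counted from the 5′ end, and share the seed. miR-499 differs from both in the last base of the seed. On a microarray such near copies may share part of their signal, which was not tested here. The myosin host mRNAs were not measured in these arrays.

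Of the 8 members on a list of fibroblast and mesenchymal miRs, 7 rose in HF and none fell, against 8.46% called higher over all 520 probes, and the groups did not overlap in any of the 8, against 21.5% over all probes. The median log2 fold change was 1.07, against -0.13 over all probes. These counts and the median include miR-455*, which reached the brightness limit only in the mean of the HF mice. They also include both arms of miR-214, miR-455 and miR-140, and arms of 1 precursor are not independent. The list had 13 tested probes, of which 4 were saturated and 1 was dim, so these were left out. miR-21, a miR of activated fibroblasts from the Vmp1 locus (chr11:86584067-86584158), had 12.10, 12.12, 11.87 and 12.08 in sham and 13.85, 13.09, 13.27, 13.14 and 13.56 in HF. The sham mice lay close together and every HF mouse was higher. This gave a change of 1.34 ± 0.17 (2.53-fold, adjusted p = 0.00103, limma).

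miR-214 and its other arm, from the noncoding gene Dnm3os on the strand opposite Dnm3 (chr1:162223368-162223477), rose together. For miR-214 the values were 11.25, 11.93, 11.79 and 11.94, and 12.87, 12.89, 13.22, 12.67 and 12.93. miR-214* had 7.76, 8.13, 8.26 and 8.27, and 9.23, 9.28, 9.25, 8.83 and 9.20. In both arms sham 1 was the lowest sham mouse and HF 4 the lowest HF mouse, still above all sham mice. The log2 fold changes were 1.19 ± 0.17 and 1.06 ± 0.15 (both adjusted p = 0.00196, limma).

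Both arms of miR-455, within the cartilage collagen gene Col27a1 on chromosome 4, also rose. miR-455 had 9.17, 9.85, 9.81 and 10.02 in sham and 10.85, 10.81, 11.15, 10.56 and 10.61 in HF. miR-455* had 6.44, 7.01, 6.90 and 7.25, and 8.23, 7.99, 8.21, 7.73 and 8.07. The groups were apart in both, with changes of 1.08 ± 0.19 (adjusted p = 0.00315) and 1.15 ± 0.18 (adjusted p = 0.00264) in limma.

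miR-199b*, on the strand opposite Dnm1 and near the top of the scale, had 13.62, 14.19, 14.15 and 14.22, and 14.84, 14.74, 14.99, 14.74 and 14.93. Sham 1 lay below the other sham mice, and the change was 0.80 ± 0.15 (adjusted p = 0.00315, limma). It differs from miR-199a-5p, which was saturated on 3 arrays and so left out, at 1 of 23 positions (U10C), and the array may not separate these 2 miRs. miR-140*, in the ubiquitin ligase gene Wwp2 and like miR-455 known from cartilage, rose by 0.60 ± 0.17 (adjusted p = 0.0216, limma), a call that ended without sham 1 (0.46). The other arm, miR-140, stood at 8.67 ± 0.20 (SD, n = 4) in sham and 9.14 ± 0.15 (n = 5) in HF and missed the size limit with 0.47. The summed scaled intensity of the 8 miRs was 26096 to 37173 in the sham mice and 55604 to 67629 in the HF mice, and what part the number of fibroblasts had in it was not tested.

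**Figure D2:**
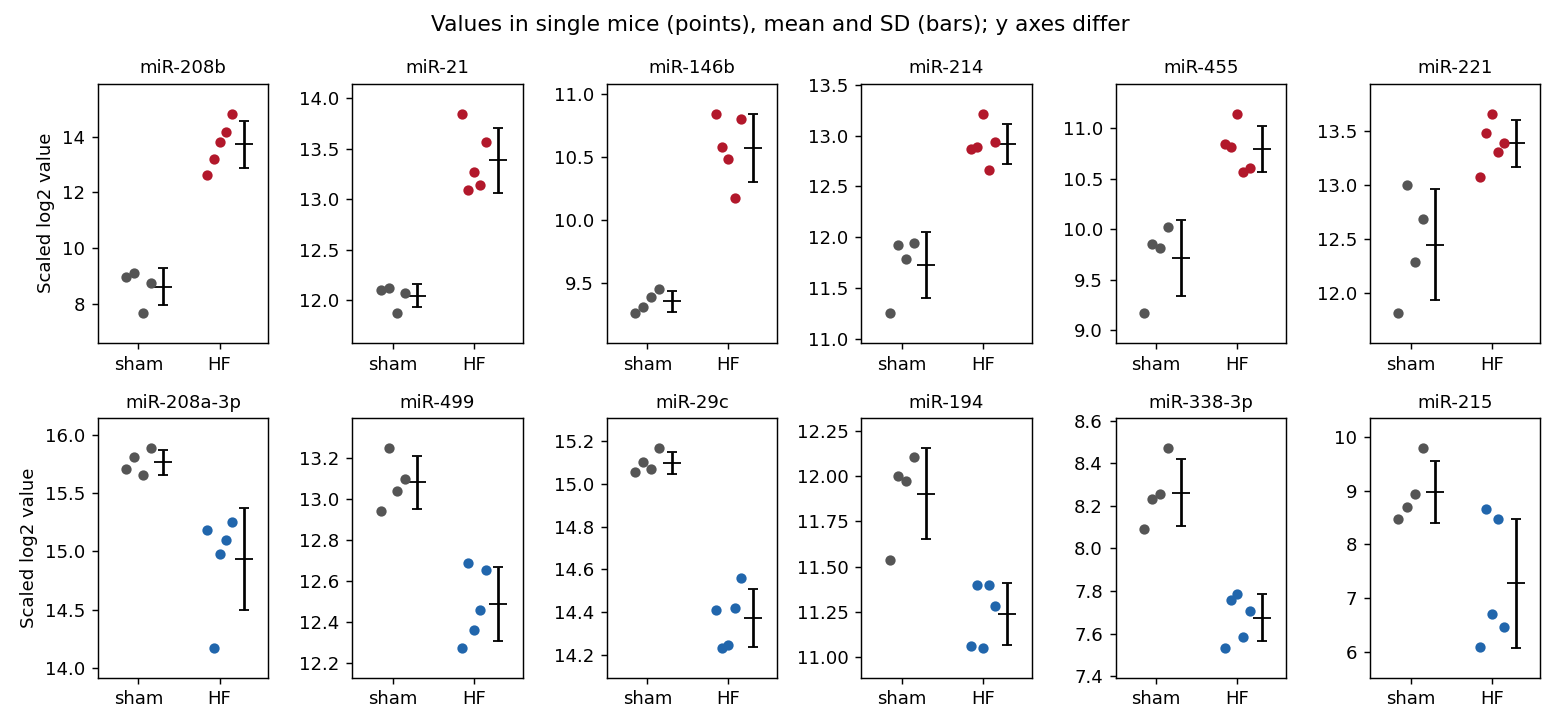
Scaled log2 values of 12 members in each mouse (points), with the mean and SD of the group (black bars), for 4 sham and 5 HF mice; the y axes differ and do not start at 0. The top row shows 6 members called higher, the bottom row 6 called lower, and miR-215 is the 1 of the 12 whose groups overlap.

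The members of the miR-146 pair, which damp inflammatory signalling through NF-κB, both rose. miR-146b on chromosome 19 had 9.26, 9.32, 9.39 and 9.45 in sham and 10.84, 10.58, 10.48, 10.17 and 10.80 in HF. miR-146a on chromosome 11 had 12.23, 12.50, 12.30 and 12.60, and 13.76, 13.23, 12.83, 12.91 and 12.96. No HF mouse reached down to the sham range in either, and HF 1 was the highest mouse in both. The changes were 1.22 ± 0.16 (adjusted p = 0.00103) and 0.73 ± 0.19 (adjusted p = 0.0167) in limma. The call of miR-146a ended without sham 3 (0.70, adjusted p = 0.0519) and when the E2-treated mice joined the fit (adjusted p = 0.076). The sequences are identical at 20 of 22 positions. miR-155, another miR of inflammation, had group means of 10.44 ± 0.47 (SD, n = 4) and 10.31 ± 0.43 (n = 5), and its difference of -0.13 ± 0.26 (SE) was not called.

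Of 6 members on a list of white blood cell miRs, 3 rose (miR-142-5p, miR-223 and miR-146a) and 3 were not called (miR-150, miR-342-3p and miR-155), against 8.46% called higher over all 520 probes, with a median change of 0.26. The list had 9 tested probes, and the 3 too dim for the set did not rise. miR-146a* was called lower (-0.71, adjusted p = 0.0361, limma). miR-142-3p (0.15) and miR-150* (-0.29) were not called. miR-142-5p, made in blood cells, had 9.97, 10.00, 9.95 and 10.33, and 11.14, 10.54, 10.69, 10.50 and 10.99. Sham 4 was the highest sham mouse and remained below all HF mice (0.71 ± 0.17, adjusted p = 0.00927, limma). miR-223, a miR of neutrophils and other myeloid cells, had 11.11, 11.40, 11.31 and 11.41, and 12.38, 12.08, 11.75, 11.62 and 11.96. HF 1 was again the highest, and the change was 0.65 ± 0.17 (adjusted p = 0.0137, limma), with a call lost once the scaled values were quantile-normalized (0.57, adjusted p = 0.0794).

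miR-150 of lymphocytes stood at 13.87 ± 0.23 in sham and 13.56 ± 0.15 in HF, a difference of -0.31 ± 0.15 (SE) that was not called. miR-342-3p had 11.04, 11.58, 10.77 and 11.44, and 9.44, 10.86, 11.02, 11.64 and 11.65, so that HF 1 alone was below the sham range and the difference of -0.29 turned to 0.09 without this mouse. miR-511-3p, in the macrophage mannose receptor gene Mrc1, had 8.15, 8.70, 8.90 and 8.67 in sham and 9.83, 9.96, 9.47, 8.55 and 9.62 in HF and is named here after its values were seen. Only HF 4 overlapped with sham. It was called at 0.88 ± 0.27 (adjusted p = 0.0283, limma), and leaving out sham 1, 2 or 4 or HF 1, 3 or 5 ended the call (lowest 0.73 and adjusted p = 0.0781 without sham 1). The summed scaled intensity of the 6 white blood cell miRs ran from 23100.5 to 32264 in sham and from 28638 to 33422 in HF, ranges that overlap.

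Of 4 red blood cell members, miR-144* was called lower at -0.51 ± 0.17 (adjusted p = 0.0431, limma) and the others were not, with a median of -0.45. The share called lower over all 520 probes was 18.3%. miR-144* had 8.71, 8.75, 8.54 and 8.62, and 7.96, 7.66, 8.44, 8.31 and 8.34, without overlap. Its call ended in 17 of 23 alternatives, among them without any 1 mouse but HF 3 or HF 5 (adjusted p = 0.0556 to 0.106). The other arm, miR-144, differed by -0.67 ± 0.26 (SE) and was not called. miR-451 of the same precursor transcript was saturated and could not be compared, and the summed intensity of the list was 23523 to 33687 in sham and 23218 to 28564 in HF.

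miR-221 and miR-222, which repress the cell cycle inhibitor p27 and lie within 10 kb of each other on the X chromosome, rose together. miR-221 had 11.81, 13.00, 12.29 and 12.68 in sham and 13.08, 13.48, 13.66, 13.31 and 13.39 in HF. miR-222 had 10.32, 11.46, 10.88 and 11.22, and 11.73, 12.05, 12.10, 11.81 and 11.70. Their sham values ran in the same order over the mice, from sham 1 as the lowest to sham 2 as the highest, and the groups did not overlap. The changes were 0.94 ± 0.22 (adjusted p = 0.00932) and 0.91 ± 0.21 (adjusted p = 0.00923) in limma. miR-222 lost the call once the scaled values were quantile-normalized (0.76, adjusted p = 0.06). miR-212-3p and miR-132, also known from cardiac hypertrophy, were not called, with 0.37 ± 0.17 (SE) for miR-212-3p and 0.32 ± 0.16 for miR-132.

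In the miR-34 family, whose miR-34 genes p53 induces, only miR-34c of 4 members was called, against 26.7% called over all 520 probes. The list had 9 tested probes, of which 5 were dim. miR-34c had 7.48, 8.06, 8.14 and 8.51, and 9.06, 9.79, 9.29, 8.66 and 8.71, without overlap and with HF 2 the highest (1.06 ± 0.26, adjusted p = 0.0108, limma). miR-34b-5p of the same cluster, identical at 21 of 23 positions, had 6.98, 8.12, 8.08 and 8.47, and 8.42, 9.40, 8.75, 8.18 and 8.14. Its groups overlapped, and the difference of 0.67 ± 0.32 (SE) was not called (adjusted p = 0.132, limma). miR-34a, from another locus, differed by -0.11 ± 0.20, and miR-449c, which shares the seed, by -0.17. Neither was called. Whether these differences within the family differ from each other was not tested.

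The seed AGCAGCA of the miR-15 and miR-16 family, known for repressing cell cycle genes, was carried by 5 members, of which 2 rose and 1 fell. The shares over all 520 probes were 8.46% higher and 18.3% lower. miR-497, on chromosome 11, had 12.79, 13.32, 13.14 and 13.53 in sham and 13.92, 14.16, 14.09, 14.04 and 14.34 in HF (0.92 ± 0.17, adjusted p = 0.00315, limma). miR-15b had 12.91, 13.21, 13.04 and 13.06, and 13.47, 13.50, 13.68, 13.65 and 13.76 (0.56 ± 0.13, adjusted p = 0.00782, limma). Neither overlapped between the groups, and miR-15b missed the size limit at 0.48 when scaled by the median of the members. miR-15a stood at 14.88 ± 0.07 (SD, n = 4) in sham and 14.91 ± 0.09 (n = 5) in HF, and miR-322 at 12.08 ± 0.05 and 12.20 ± 0.20; neither was called. miR-1907, which bears the same seed letters but was not matched to a RefSeq miR, had 10.35, 9.57, 9.98 and 9.56, and 9.41, 8.67, 8.92, 9.49 and 8.25. It was called lower at -0.92 ± 0.26 (adjusted p = 0.024, limma), and the call ended without sham 1 (-0.76, adjusted p = 0.0626) and likewise when sham 3 was left out (-0.88, adjusted p = 0.0675).

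Among the members that fell were both arms of miR-29c. miR-29c belongs to a family that represses collagen mRNAs, and miR-29c* has another seed. miR-29c, in the noncoding gene A330023F24Rik (chr1:195037547-195037634), had 15.05, 15.10, 15.07 and 15.17 in sham and 14.41, 14.23, 14.24, 14.42 and 14.56 in HF. miR-29c* had 10.23, 10.76, 10.48 and 10.51, and 9.55, 9.81, 9.73, 9.65 and 9.80. All HF mice were below all sham mice in both arms, with changes of -0.72 ± 0.12 and -0.79 ± 0.14 (both adjusted p = 0.00315, limma). Without scaling the difference of miR-29c was 0.06, and its unscaled mean intensity was 27829 in sham and 29339 in HF. miR-29b-2* from the same cluster differed by -0.34 ± 0.23 (SE) and miR-29b-1* from chromosome 6 by 0.62 ± 0.23, and neither was called. Both are minor arms. Of 7 tested probes on the miR-29 list, 2 were saturated and 1 was dim, so these were left out.

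miR-192, miR-194 and miR-215, known from liver and gut, all stood lower in HF. Of these 3 members 2 were called lower, against 18.3% over all 520 probes. miR-194 does not share the seed of miR-192 and miR-215. miR-194, made from a locus on chromosome 1 and another on chromosome 19, had 11.53, 11.998, 11.97 and 12.10, and 11.06, 11.40, 11.05, 11.40 and 11.28. The groups were apart (-0.66 ± 0.15, adjusted p = 0.00884, limma), and the 75th percentile scaling left -0.49, which was not called. miR-215, which lies beside the chromosome 1 locus (chr1:185313581-185313692), had 8.47, 8.70, 8.94 and 9.79, and 6.09, 8.65, 6.70, 8.46 and 6.45. HF 2 and HF 4 were near the sham mice and the other 3 far below. For miR-215 only the mean of the sham mice reached the brightness limit. The mean difference of -1.70 ± 0.52 (adjusted p = 0.0295, limma) lost its call in 11 of 23 alternatives, including those without sham 2, 3 or 4 or HF 1, 3 or 5 (adjusted p = 0.0543 to 0.0873), and its exact two-sided permutation p was 0.0556. miR-192, with the seed of miR-215 and 18 of 21 positions identical, stood at 10.39 ± 0.23 (SD, n = 4) in sham and 9.93 ± 0.08 (n = 5) in HF and missed the size limit (-0.47). No value for miR-122, the defining miR of liver, was among those tested.

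Other members fell without overlap between the groups. miR-338-3p, in the neuronal kinase gene Aatk, had 8.09, 8.23, 8.26 and 8.47, and 7.53, 7.76, 7.79, 7.58 and 7.71 (-0.59 ± 0.13, adjusted p = 0.00658, limma). miR-30c-1*, a minor arm from the cardiomyocyte miR-30 family in the transcription factor gene Nfyc, fell by 0.56 ± 0.13 (adjusted p = 0.00932, limma). miR-30e* of the same gene differed by -0.35 ± 0.13 (SE) without a call. miR-30c-2*, with the seed of miR-30c-1*, differed by -0.03 and was not called. Of 11 tested probes on the miR-30 list, 5 were saturated and 2 dim, and the 4 in the set were all minor arms. miR-378* stood at 12.36 ± 0.19 (SD, n = 4) in sham and 11.82 ± 0.12 (n = 5) in HF (-0.55 ± 0.14 SE, adjusted p = 0.0116, limma), with the call ended without sham 2 (-0.48) or HF 3 (-0.49). With the 75th percentile scaling miR-338-3p, miR-30c-1* and miR-378* were not called. Both arms of miR-345 were lower: miR-345-5p fell by 0.84 ± 0.21 with sham 1 inside the HF range (adjusted p = 0.012, limma), and miR-345-3p fell by 0.70 ± 0.15 without overlap (adjusted p = 0.00483, limma). miR-345-3p entered the set only through the sham mice, whose mean alone reached the brightness limit.

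The imprinted Dlk1-Dio3 region of chromosome 12, whose miRs are transcribed from the maternal chromosome, held 13 members between chr12:109592846 and 109747960. Of these 5 were higher, none lower and 8 not called, against 8.46% higher over all 520 probes, with a median change of 0.48 and a range from -0.55 to 0.87. These members were taken by position. A list of the cluster by name had 39 tested probes, 26 of them dim, and also 13 members. It held both arms of miR-345 in place of miR-1188* and miR-3072*, and so gave 5 higher and 2 lower. miR-379 had 8.08, 8.04, 8.11 and 8.62 in sham and 9.05, 8.74, 8.97, 9.40 and 9.27 in HF. Sham 4 stood above the other sham mice and below every HF mouse (0.87 ± 0.18, adjusted p = 0.00388, limma). miR-299* had 8.03, 8.09, 8.49 and 8.63, and 9.06, 8.90, 8.99, 9.18 and 9.01, also without overlap (0.72 ± 0.16, adjusted p = 0.00598, limma).

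The locus of miR-127 lies within the span of the retrotransposon-like gene Rtl1, whose strand the annotation did not settle. miR-127 had 9.66, 9.77, 9.85 and 10.17, and 10.51, 10.32, 10.24, 10.46 and 10.43. It was called at 0.53 ± 0.14 (adjusted p = 0.0167, limma), but not without sham 1 (0.46), sham 2 (0.497) or HF 1 (0.498). miR-434-3p (0.73 ± 0.20, adjusted p = 0.0173, limma) and miR-541 (0.52 ± 0.17, adjusted p = 0.0431, limma) were called with overlapping groups. Without sham 2 neither kept the call (0.65 with adjusted p = 0.0546, and 0.47 with adjusted p = 0.113), and miR-541 lost it also without sham 1 or 3 or HF 1, 3, 4 or 5 (adjusted p = 0.0538 to 0.0961). In all, the count of higher members in the region was 2 without sham 2, 3 without sham 1 or HF 1, and between 2 and 9 over all alternatives. The 4 members below 0 were miR-341*, miR-3072*, miR-667 and miR-1188*, none of them called. The miR-345 precursor lies 756 kb from miR-127, outside the region.

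**Figure D3:**
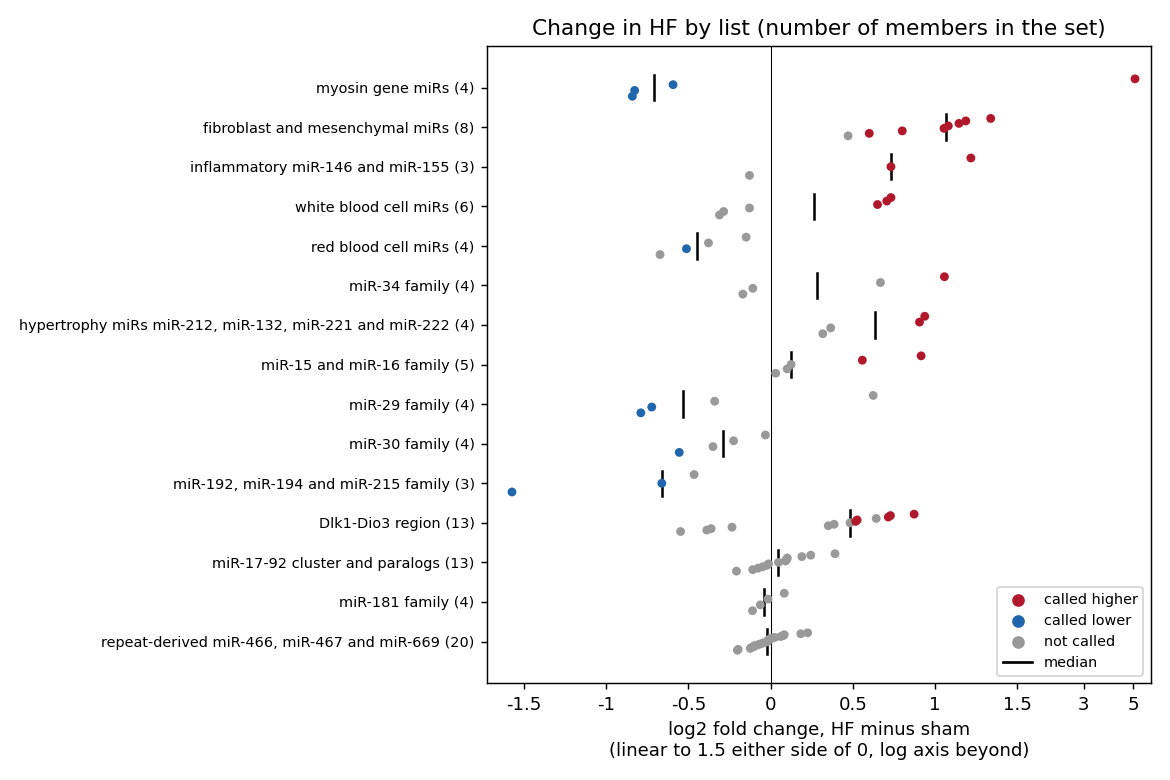
Log2 fold change, HF minus sham, of the members of 15 lists, 1 point per member and a black bar at the median of each list, with the number of members in parentheses; the axis is linear to 1.5 on either side of 0 and logarithmic beyond. Fibroblast and mesenchymal miRs lie to the right, 7 of 8 called higher, whereas the miR-17-92, miR-181 and repeat-derived lists lie around 0 with no member called.

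Several families held no called member, while 26.7% were called over all 520 probes. In the miR-17-92 cluster and its paralogs, a group of growth-promoting miRs, 0 of 13 members were called and changes ran from -0.21 to 0.39, with a median of 0.05. The 4 miR-181 members ran from -0.11 to 0.08, and 20 repeat-derived members of the miR-466, miR-467 and miR-669 families from -0.20 to 0.23. At an unadjusted p under 0.05 in limma the counts were also 0 in these 3 groups. In the X-linked cluster of miR-322 and miR-503 0 of 5 members were called (-0.28 to 0.33). Among the 30 brightest members, miR-151-5p had the smallest difference, with means of 13.23 ± 0.23 (SD, n = 4) and 13.22 ± 0.12 (n = 5), followed by miR-15a with the means given above, miR-19b (13.78 ± 0.14 and 13.70 ± 0.21) and miR-181a (14.11 ± 0.24 and 14.20 ± 0.10). Of the muscle miRs only 3 were unsaturated and bright, and none was called; miR-133a*, the minor arm of miR-133a, stood at 14.70 ± 0.20 (SD, n = 4) in sham and 14.18 ± 0.36 (n = 5) in HF, a difference of -0.52 ± 0.19 (SE; adjusted p = 0.0611, limma). A p that missed the threshold does not show that such levels were equal. Of 5 members on a list of miRs from other tissues, 0 were called, 2 had an unadjusted p under 0.05, and the median was -0.36.

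The difference between the arms of a precursor within an array does not depend on the scaling constant of that array. Among the 31 precursors with both arms in the set, both arms were called in the same direction in 5 (miR-214, miR-455, miR-29c, miR-345 and miR-208a), 1 arm was called in 8, neither in 18 and the arms were called in opposite directions in 0. Of these arms, miR-455* reached the brightness limit only in the mean of the HF mice, and miR-345-3p and miR-652* only in that of the sham mice. The change of the arm difference was tested in 130 precursors with both arms among the 520 probes, of which 22.3% were called, and 3 of the 31 were called. Precursors outside the 31 had at least 1 arm that was dim or saturated, so these shares are not alike. Where an arm is saturated, the difference also depends on the unscaled intensity of the array. For miR-210, a miR induced by low oxygen, the 5p minus 3p difference was -2.61, -3.57, -3.56 and -3.46 in sham and -4.23, -4.35, -4.51, -4.24 and -4.03 in HF. Every HF mouse lay below every sham mouse, a change of -0.97 ± 0.21 (adjusted p = 0.00814, limma). The 3p arm rose by 0.78 ± 0.19 (adjusted p = 0.00932, limma; not called once the scaled values were quantile-normalized, with 0.66 and adjusted p = 0.0557), and the 5p arm differed by -0.19 ± 0.18 (SE).

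For miR-652, in the X-linked gene Tmem164, the arm difference was -2.49, -2.50, -2.41 and -2.01 in sham and -2.97, -3.32, -3.52, -3.24 and -4.30 in HF. The groups were again apart, with HF 5 lowest (-1.12 ± 0.25, adjusted p = 0.0091, limma). Here miR-652* fell by 0.86 ± 0.20 (adjusted p = 0.00873, limma) while miR-652 differed by 0.26 ± 0.16 (SE). miR-652* reached the brightness limit only in the mean of the sham mice, which limits this pair. For miR-149, in the proteoglycan gene Gpc1, the difference was -1.94, -1.27, -1.07 and -0.75, and -2.10, -1.67, -1.79, -2.10 and -2.38, so that sham 1 lay within the HF range. The change of -0.75 ± 0.24 was called (adjusted p = 0.0454, limma), but without sham 2, 3 or 4 or HF 1, 4 or 5 it was not (adjusted p = 0.0839 to 0.129). miR-149 itself fell by 0.61 ± 0.15 (adjusted p = 0.0118, limma), or -0.43 and not called with the 75th percentile scaling.

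**Figure D4:**
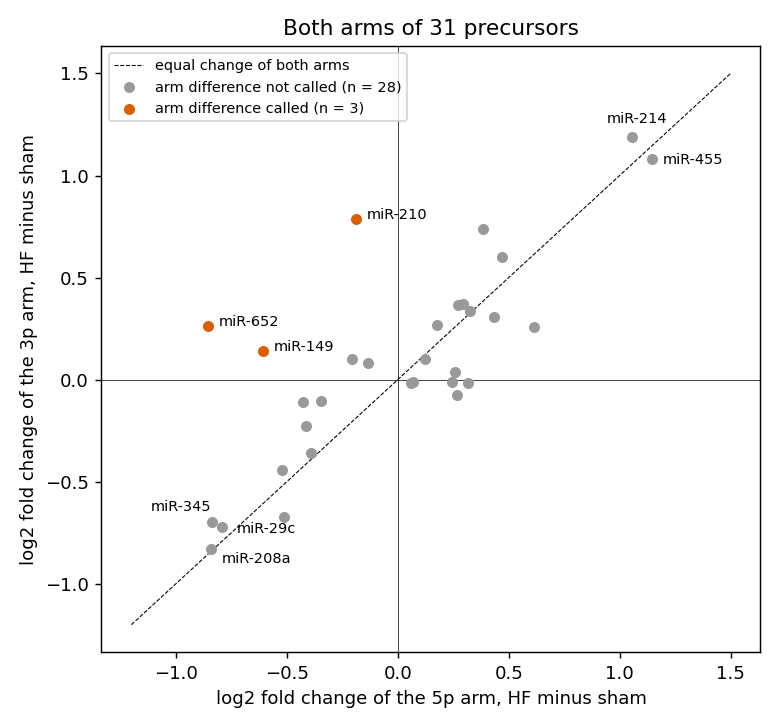
Log2 fold change, HF minus sham, of the 3p arm (y axis) against that of the 5p arm (x axis) for the 31 precursors with both arms in the set; the dashed line marks equal change. The precursors of miR-210, miR-652 and miR-149, whose arm difference was called, lie above the line, and miR-214 and miR-455 at the upper right with both arms higher.

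A single genomic locus was found for 208 members, and 122 of these lay inside a gene on the same strand. Of the 122, 14 were higher and 10 lower, 19.7% in all, and of the 54 in no other gene 11 were higher and 3 lower, 25.9%. The share called was 22.6% over the 208 members and 19.6% over the whole set. It was 26.7% over all probes, which include dim and saturated ones. Whether the shares of the 122 and the 54 differ was not tested. The median change was -0.02 in the 122 and 0.01 in the 54, near that of the whole set. Of 11 members with a gene on the opposite strand only, 2 were called, and of 21 in a gene whose strand the annotation did not settle, 7. let-7e and miR-99b, a pair in the gene Spaca6, were both free of overlap, with let-7e at 0.54 ± 0.14 (adjusted p = 0.0136, limma) and miR-99b at 0.35 ± 0.13 (SE), not called. The call of let-7e ended without sham 1 (0.49) or HF 2 (0.47). No host mRNA was measured, so no change of a host gene can be given.

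The remaining calls were spread over single loci. miR-744, in the kinase gene Map2k4, had 10.56, 10.37, 9.90 and 9.81, and 10.89, 10.66, 11.02, 11.36 and 10.82, without overlap (0.79 ± 0.20, adjusted p = 0.0116, limma), and was not called when the E2-treated mice joined the fit (adjusted p = 0.0959). miR-674* rose by 0.74 ± 0.14 (adjusted p = 0.00315, limma), with the other arm at 0.39 ± 0.16 (SE) and not called. miR-130a, the brightest member called higher, stood at 14.66 ± 0.34 (SD, n = 4) in sham and 15.23 ± 0.18 (n = 5) in HF, and its call (0.57, adjusted p = 0.0283, limma) ended without sham 1 (0.42), sham 3 (adjusted p = 0.0781) or HF 5 (0.495). miR-125b-2-3p was called at 0.52 ± 0.13 (adjusted p = 0.0119, limma) and lost the call without sham 1 (0.44) or HF 2 (0.499). miR-27b* (0.61 ± 0.19) was not called without sham 1, 3 or 4 or HF 3, 4 or 5 (adjusted p = 0.055 to 0.0967, limma), and miR-346* (0.62 ± 0.18) without sham 3 or 4 or HF 3 or 4 (adjusted p = 0.0515 to 0.0787). Among the lower calls, miR-1894-5p (-0.52 ± 0.14) missed the size limit without sham 1 (-0.41), HF 1 or HF 5, miR-1897-5p (-0.56 ± 0.18) was lost without sham 1, 3 or 4 or HF 3, 4 or 5 (adjusted p = 0.0617 to 0.0967), and miR-207 (-0.50 ± 0.14) without sham 3 or HF 1, 3 or 4 (-0.49 to -0.44). In all, 18 of the 50 calls (11 higher, 7 lower) depended on at least 1 mouse in this way, and 32 did not. miR-207 also reached the brightness limit only in the mean of the sham mice.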

How the data were processed

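LV RNA was labelled at the 3′ end and hybridized to single-channel arrays of miRBase 16.0 probes, 1 array per mouse. The deposited intensities are background-subtracted whole numbers for 3 spots of each probe, and no scaling had been applied to them. The deposited log2 values were made from them by the authors, who scaled each array by a trimmed mean and kept mouse probes above a threshold set from negative controls. Checked on the values, a scaled value is the mean of the log2 of its 3 spots plus 1 constant per array (0.10 to 0.46 for sham, -0.74 to -0.14 for HF). The deposited table also holds the authors' p-values, false discovery rates, ranks, fold changes and group means, which were not used, and 0 value columns were left unassigned. The scanner and its software are not given in the sources used here.

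Groups came from the labels. limma (version 3.58.1 in R 4.3.3; lmFit, eBayes) compared 5 HF with 4 sham arrays on the scaled log2 values of all 520 probes, with Benjamini-Hochberg adjustment; a call needed an adjusted p under 0.05 and a log2 fold change over 0.5 in size, the limits of the study's methods. Arm differences were fitted the same way over 130 precursors. Exact permutation tests were two-sided over all splits of the 9 mice. Fold changes are given ± SE and group means ± SD. The fit was tested on simulated data. Whether the mice shared a litter or batch is not stated. Seeds, loci and host genes came from RefSeq (GRCm38.p6), and a cluster joins loci within 10 kb on 1 strand. Named were the 12 highest and 12 lowest called members without overlap, their other arms, up to 4 members with the smallest p of each list, seed family and cluster, the members at the limits and 5 bright members of small difference; exceptions are stated. The members and lists were chosen with earlier results of these data known. Alternatives were other scalings, background, spot averages, filters, tests, samples and blocks, and leaving out each mouse. Figures were drawn with matplotlib 3.10.9.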

Additional observations from a re-analysis of the deposited data

Results flagged for a closer look

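In the groups of 4 sham or 5 HF mice, 158 groups of values of 79 named members were tested for 1 mouse apart from the others by Dixon's criterion, and 16 were flagged; chance flags about 1 in 20 groups. Sham 1 accounted for 6 of these. It was the lowest sham mouse for miR-199b* (13.62, the others 14.15 to 14.22), miR-212-3p (6.77, the others 7.40 to 7.42), miR-652 (10.11, the others 10.48 to 10.51), miR-674 (10.30, the others 10.85 to 10.89) and miR-486* (10.16, the others 10.72 to 10.82), and the highest for miR-1894-5p (8.48, the others 7.98 to 8.06). Sham 4 was the highest for miR-379 (8.62, the others 8.04 to 8.11) and miR-142-5p (10.33, the others 9.95 to 10.00), and sham 3 the lowest for miR-98 (10.07, the others 10.38 to 10.43).

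Among the HF mice, HF 2 was far below the others for miR-208a-3p (14.17, the others 14.98 to 15.26), HF 4 for miR-214* (8.83, the others 9.20 to 9.28), HF 3 for miR-378* (11.61, the others 11.83 to 11.90) and HF 1 for miR-27b* (7.68, the others 8.31 to 8.49). HF 5 was above the others for miR-130a (15.54, the others 15.13 to 15.23), miR-192 (10.07, the others 9.86 to 9.91) and miR-652 (11.06, the others 10.53 to 10.61).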

How the results depend on the processing

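Of the 50 calls, 15 held in all 23 alternatives run, all of them higher (miR-208b, miR-455*, miR-214, miR-455, miR-214*, miR-34c, miR-146b, miR-21, miR-497, miR-199b*, miR-221, miR-674*, miR-379, miR-299* and miR-142-5p), and 22 held in all but no scaling, with 7 lower among them. Without scaling, 150 members were called, 150 higher and 0 lower, and 52.9% did not overlap. With the 75th percentile of all probes 50 were higher and 9 lower. Leaving out 1 mouse gave 42 to 51 calls, 23 to 31 higher and 15 to 21 lower, 22.7% to 27.8% without overlap, and 2 or 3 called arm pairs. Quantile normalization of the scaled values gave 23 higher and 20 lower, the methods' t-test 27 and 15, negative controls subtracted 34 and 14. Brightness limits of 1.5 and 3 above the threshold gave 297 and 187 members, and 254 had no saturated spot on any array. Replicate numbers were not taken to pair the mice. For numbers 1 to 4 the deviations of the sham and HF mouse correlated at 0.46, 0.34, 0.20 and -0.10 over all probes. Over the members the correlations were 0.55, 0.52, 0.18 and -0.12, which does not settle whether the mice were paired. With a replicate block 31 were higher and 21 lower, and 2 arm pairs were called. The array code as a random block, chosen after seeing the data, gave 29 and 20, as did the fit of all 3 groups without it. The estimated correlation within a code was -0.0086. The sham mice had a code that no other group shared, so this block cannot separate code from group. The scaling of the arrays, their codes and the signal of near-identical probes limit these results, and the cause of the changes below was not tested.

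Directions turned without scaling, to miR-29c 0.061, miR-499 0.19, miR-338-3p 0.19, miR-345-3p 0.086, miR-194 0.12, miR-30c-1* 0.24, miR-149 0.18, miR-378* 0.24, miR-1894-5p 0.26, miR-144* 0.27, miR-207 0.29, miR-1897-5p 0.23, miR-192 0.32, miR-34a 0.68, miR-144 0.11, miR-133a* 0.27, miR-30e* 0.44, miR-210* 0.60, miR-150 0.47, miR-155 0.66, miR-342-3p 0.50, miR-486* 0.41, miR-1894-3p 0.34, miR-483* 0.94 and miR-29b-2* 0.44. With the 75th percentile miR-34a turned to 0.069, miR-155 to 0.045 and miR-483* to 0.33. With the median of the members miR-483* turned to 0.077 and miR-15a to -0.042, with quantile normalization of the scaled values miR-15a to -0.17, of the raw intensities miR-15a to -0.17 and miR-483* to 0.20, and with negative controls subtracted miR-483* to 0.19. Leaving out 1 mouse, miR-155 ranged from -0.31 to 0.085 (without sham 2), miR-34a from -0.23 to 0.023 (without HF 4) and miR-342-3p from -0.47 to 0.086 (without HF 1).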

Other observations

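The value of miR-483*, a miR of the Igf2 gene, in HF 1 came from 3 spots that disagreed, with intensities of 8513, 241 and 258. The scaled log2 value was 9.24 in this mouse, against 6.98 to 8.23 in HF 2 to 5 and 8.05 to 8.17 in sham.

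Over the 9 mice the 3 spots of a member differed by a median SD of 0.10 on the log2 scale, and the median SD between mice within groups was 0.25. Outside the set, 28 of the 42 saturated probes were called lower. For a probe at the ceiling of the scanner on every array, miR-1 and miR-133a among them, the difference between the groups is that of the scaling constants of the arrays, and no fold change is given.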
